A study of Arabidopsis thaliana with 39 samples.

Results

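Mild drought in rosette leaves was studied as the comparison of 3 small RNA libraries of droughted plants (D30) with 3 libraries of their watered controls (C30), chosen by the sample labels alone, among the 39 libraries of the series. All 353 distinct mature miRNA sequences of the deposited table were taken as members, which are all the sequences of the series. D30 plants were 27 days old Col-0 wild type plants of Arabidopsis thaliana, grown in soil of 70% water content until watering was stopped and sampled when the soil had dried to 30%, before the leaves wilted. C30 plants were Col-0 wild type plants of the same age that served as the control of that stage. The labels write field capacity for the D30 level where the study's methods write soil water content. The replicates were biological. Each library mixes all cell types of a leaf, so that fewer cells of a type and less RNA per cell cannot be told apart.

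Plant miRNAs are cut as short duplexes from the hairpins of MIR transcripts, mostly by DICER-LIKE 1, and the strand kept by an ARGONAUTE protein guides the cleavage or translational repression of mRNAs with a nearly complementary site. Leaves hold a few very abundant developmental miRNAs, such as those that repress SPL, HD-ZIP III, ARF and AP2-like transcription factors, beside many of low level, some of which follow nutrient supply. The group best known for a nutrient is the copper miRNAs, miR397, miR398, miR408 and miR857, whose targets are copper proteins such as the copper and zinc superoxide dismutases, laccases and plantacyanin, and which are transcribed under the copper-sensing factor SPL7 through GTAC cores in their promoters.

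Of the 353 sequences, 1 was called in D30 leaves at an adjusted p under 0.05, miR398b-5p,c-5p, and it was higher. The sequences below are those of the called miRNA, of the strand opposite to it, and of the other members that had the smallest p-values among the higher ones, since these carry the upward side of the comparison. Each is read 5′ to 3′ as deposited, with T for U, and the capitals mark the seed (bases 2 to 8 from the 5′ end).
miR398b-5p,c-5p: aGGGTTGAtatgagaacacac
miR398b-3p,c-3p: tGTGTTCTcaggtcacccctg
miR408-5p: aCAGGGAAcaagcagagcatg
miR408-3p: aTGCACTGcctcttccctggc
miR160c-3p: cGTACAAGgagtcaagcatga
miR169d,e,f-5p,g-5p: tGAGCCAAggatgacttgccg
miR395a,d,e: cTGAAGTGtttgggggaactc
miR447a.2-3p: tATGGAAGaaattgtagtatt
miR1888a: tAAGTTAAgatttgtgaagaa
miR5648-3p: aTCTGAAGaaaatagcggcat
miR5655: aAGTAGACacataagaaggag

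The following sequences had the smallest p-values among the lower ones. miR164a,b-5p is set beside miR164c-5p for comparison, because both share the seed and differ by G21A (miR164c-5p base first, counted from 1 at the 5′ end), yet they had fold changes of opposite sign. miR156g shares its seed with miR156a-5p,b-5p,c-5p,d-5p,e,f-5p, miR159a with miR159b-3p and miR159c, and miR157a-3p,b-3p with miR157c-3p.
miR164c-5p: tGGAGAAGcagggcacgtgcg
miR164a,b-5p: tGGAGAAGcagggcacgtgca
miR157a-3p,b-3p: gCTCTCTAgccttctgtcatc
miR156g: cGACAGAAgagagtgagcac
miR159a: tTTGGATTgaagggagctcta
miR319c.2: tGTGAATGatgcgggagatat
miR167a-3p: gATCATGTtcgcagtttcacc
miR850: tAAGATCCggactacaacaaag
miR851-3p: tGGGTGGCaaacaaagacgac
miR861-5p: cCTTGGAGaaatatgcgtcaa
miR5023: aTTGGTAGtggataagggggc

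The called 21-nucleotide sequence occurs at 2 places of TAIR10.1, at chr5:4691033-4691053 in the hairpin MIR398b (AT5G14545, chr5:4691022-4691137, plus strand) and at chr5:4694705-4694725 in the hairpin MIR398c (AT5G14565, chr5:4694694-4694808, plus strand), with 3556 bases between the hairpins. Its reads cannot be divided between them. The annotation places the protein-coding gene AT5G14550 on the opposite strand over MIR398b, and no other gene over MIR398c. The MIR408 hairpin (AT2G47015) lies at chr2:19319814-19320031 on the plus strand, opposite AT2G47020. The hairpins are printed with both counted strands in capitals, the 5p strand first, since both strands of each were measured.
MIR398b: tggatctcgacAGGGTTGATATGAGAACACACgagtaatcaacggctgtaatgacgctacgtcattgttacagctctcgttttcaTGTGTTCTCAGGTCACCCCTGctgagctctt
MIR398c: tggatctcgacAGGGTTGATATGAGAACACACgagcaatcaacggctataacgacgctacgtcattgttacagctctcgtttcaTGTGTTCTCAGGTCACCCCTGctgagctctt
MIR408: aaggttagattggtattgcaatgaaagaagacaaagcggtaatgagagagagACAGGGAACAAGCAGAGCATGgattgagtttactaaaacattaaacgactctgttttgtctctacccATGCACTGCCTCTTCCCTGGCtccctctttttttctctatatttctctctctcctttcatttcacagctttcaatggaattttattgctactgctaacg

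The GTAC core (its own reverse complement, both strands, overlaps allowed) was counted in the 300 bases before each of 326 annotated hairpins, a window set by the hairpin's start and not by a mapped start of transcription. MIR398b had 7 cores, MIR398c 5, MIR408 4, MIR397b 4, MIR397a 3, and MIR398a and MIR857 had 0. The MIR857 window (chr4:7878562-7878861, minus strand) contains the mature miR397b sequence. It overlaps the window of MIR397b (chr4:7878761-7879060, minus strand), so its 0 is not a count separate from that locus. Of the 326 windows, 39.3% held at least 1 core and 1.84% held 4 or more. The window of MIR398b is given because it had the most cores of the copper miRNAs, with the cores in capitals (chr5:4690722-4691021, plus strand).
MIR398b upstream: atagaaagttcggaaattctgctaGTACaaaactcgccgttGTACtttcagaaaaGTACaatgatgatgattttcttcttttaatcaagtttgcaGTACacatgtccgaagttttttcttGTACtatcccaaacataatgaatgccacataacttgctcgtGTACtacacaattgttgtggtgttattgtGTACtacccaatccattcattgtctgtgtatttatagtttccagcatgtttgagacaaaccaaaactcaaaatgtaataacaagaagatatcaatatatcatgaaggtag

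The 6 libraries were alike in depth. D30 libraries had 10547366 to 10741289 reads and 2946341 to 3541605 miRNA reads, and C30 libraries had 10264135 to 10680396 reads and 3238869 to 4042255 miRNA reads. Between 96.9 and 97.2% of the reads mapped to the genome in D30 libraries, against 91.9 to 96.3% in C30 libraries, so that the groups did not overlap in this measure, and RNA integrity numbers were 8.1 to 9.2 in D30 and 8.5 to 9.3 in C30 libraries. The part of mapping rate and integrity in the results was not tested. The age label was checked with the juvenile and adult markers miR156 and miR172. A comparison with younger seedlings cannot tell leaves from other adult tissue. Summed miR156 was 137441 to 145163 CPM (the count as a share of all miRNA reads of its library, on the usual per-library scale) in D30 and 131139 to 155680 in C30 leaves, below all 27 seedling libraries of the series (211432 to 405780). Summed miR172 was 17162 to 22207 CPM in D30 and 16267 to 19209 CPM in C30 leaves, above all seedling libraries (2081 to 6013). The seedlings were 15 days old. Their libraries include controls and plants under heat, salt excess, copper deficiency or excess, cadmium excess or sulfur deficiency.

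No read of 61 sequences was found in any of the 6 libraries, which allows a level of up to 0.149 CPM over their 20136479 miRNA reads by counting error alone. Another 126 sequences had reads but were too low for the test, and 166 passed the filter of edgeR (filterByExpr, minimum count 10). Unless said otherwise, levels below are CPM after TMM scaling (scaled CPM), the scaling that the fold changes use, log2 fold changes are D30 over C30 with their standard error (SE), and adjusted p-values come from edgeR's quasi-likelihood test with the Benjamini-Hochberg method over the 166 sequences.

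The 1 call was 0.602% of the sequences tested. It was higher, and 0 sequences were called lower. Before adjustment, 14 sequences were higher at a p under 0.05 (8.43% of those tested) and 11 were lower (6.63%), and DESeq2 called 2 higher and 2 lower. Of all tested sequences, 84 had a fold change above 0 and 82 below 0, with a median of 0.0029 on the log2 scale. In 17 sequences (10.2%) all D30 libraries lay above all C30 libraries, and in 19 (11.4%) all lay below. The plot of change against level shows that fold changes of more than 2-fold were few. There were 7 above and 2 below, and 6 of these 9 had a mean level under 15 scaled CPM. The largest, miR780.2 (chosen for naming after its value was seen), had 18.5, 6.57 and 21.9 scaled CPM in D30 libraries, against 13.2, 2.73 and 0 in C30 libraries. These overlap, and the log2 fold change of 1.59 (SE 0.78) had an adjusted p of 0.33 by edgeR.

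**Figure D1:**
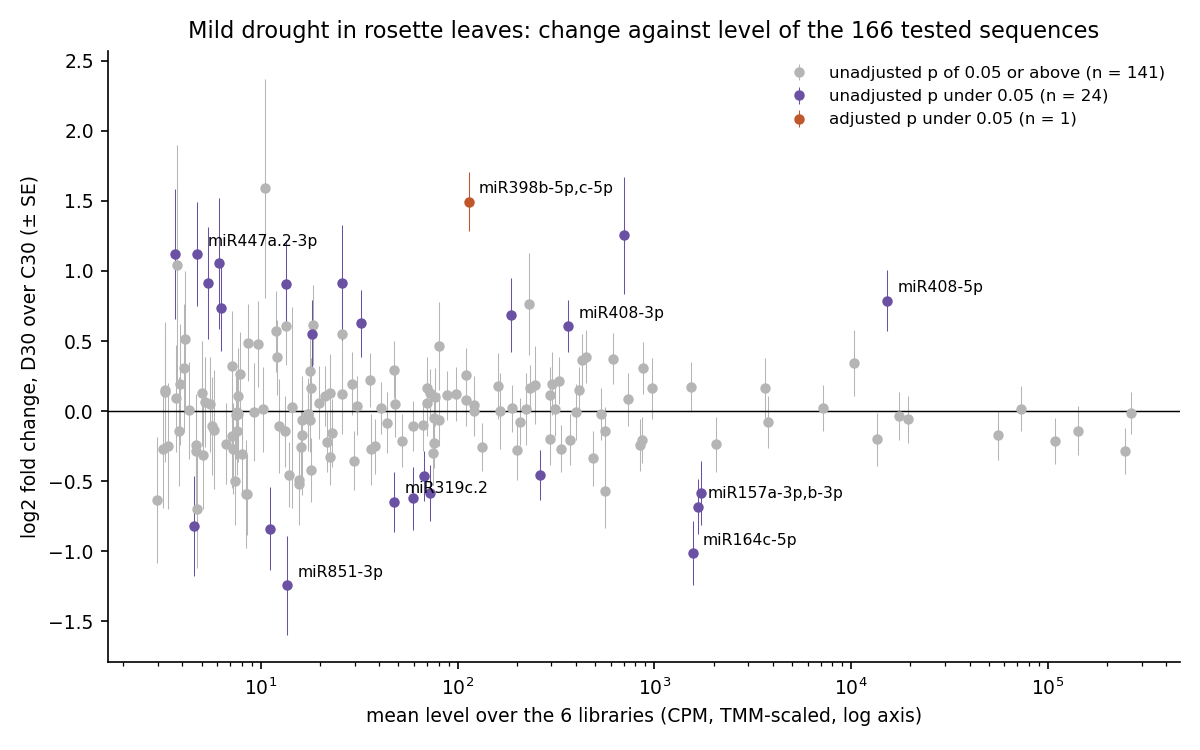
Log2 fold change of D30 over C30 (vertical axis, bars show the SE) against the mean level over the 6 libraries in CPM after TMM scaling (log axis) for the 166 tested sequences. A single sequence, miR398b-5p,c-5p, passed the adjusted threshold at +1.49 and 24 others had an unadjusted p under 0.05. Of the 10 sequences of most reads, miR408-5p lies farthest from 0, at +0.79.

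miR398b-5p,c-5p is the strand opposite to miR398b-3p,c-3p, the repressor of the superoxide dismutase mRNAs CSD1 and CSD2. It had 151, 155 and 197 scaled CPM in D30 libraries, against 75.2, 53.3 and 50.3 in C30 libraries. Every D30 library thus held at least 2 times the level of any C30 library, and the groups were far apart relative to their spread (168 ± 25.6 in D30 and 59.6 ± 13.6 in C30, SD, n = 3 each). The counts behind these values were 489, 497 and 703 reads in D30 and 240, 176 and 179 reads in C30. The log2 fold change was 1.49 (SE 0.21), a 2.82-fold higher level, with an adjusted p of 0.0023 by edgeR. The call was lost without D30 replicate 1 (1.63, adjusted p = 0.055) or D30 replicate 3 (1.27, adjusted p = 0.18), and in the fits that took their spread from all 12 drought libraries (1.49, adjusted p = 0.067) or all 39 libraries (1.50, adjusted p = 0.18).

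The other strand, miR398b-3p,c-3p, was measured from few reads. It had 7.10, 4.06 and 10.1 scaled CPM in D30 libraries, against 3.76, 2.73 and 4.78 in C30 libraries. D30 replicate 2 fell inside the range of C30. The log2 fold change was 0.91 (SE 0.40), with an adjusted p of 0.31 by edgeR. In these leaves the 5p strand held 21.3, 38.2 and 19.5 reads for each read of the 3p strand in D30 libraries, and 20.0, 19.6 and 10.5 in C30 libraries, although the 3p strand is the known regulator of the hairpin. The 9 reads of the 3p strand in C30 replicate 2 were under the minimum set for a test of this ratio.

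miR408, which represses plantacyanin and laccase mRNAs, stood next among the copper miRNAs. Its 5p strand was the abundant one, with 14810, 24940 and 17934 scaled CPM in D30 libraries, against 9862, 13701 and 9820 in C30 libraries, and it ranked 9 among all sequences by level. All D30 libraries lay above all C30 libraries, by a narrow gap between D30 replicate 1 and C30 replicate 2. The log2 fold change was 0.79 (SE 0.22), with an adjusted p of 0.17 by edgeR. The known regulator miR408-3p had 494, 409 and 413 scaled CPM in D30 libraries, against 306, 322 and 237 in C30 libraries. Again the groups did not overlap, at a log2 fold change of 0.61 (SE 0.19) and an adjusted p of 0.19 by edgeR. Neither strand of miR408 passed the adjusted threshold, although DESeq2 called the 5p strand (log2 fold change 0.80, adjusted p = 0.037). The ratio of 5p to 3p reads of miR408 was 30.0, 61.0 and 43.4 in D30 and 32.3, 42.6 and 41.4 in C30 libraries. The mean log2 ratio differed by 0.16 (two-sided exact permutation test, p = 0.70, n = 3 each), where 0.10 is the smallest p that 3 libraries against 3 allow.

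**Figure D2:**
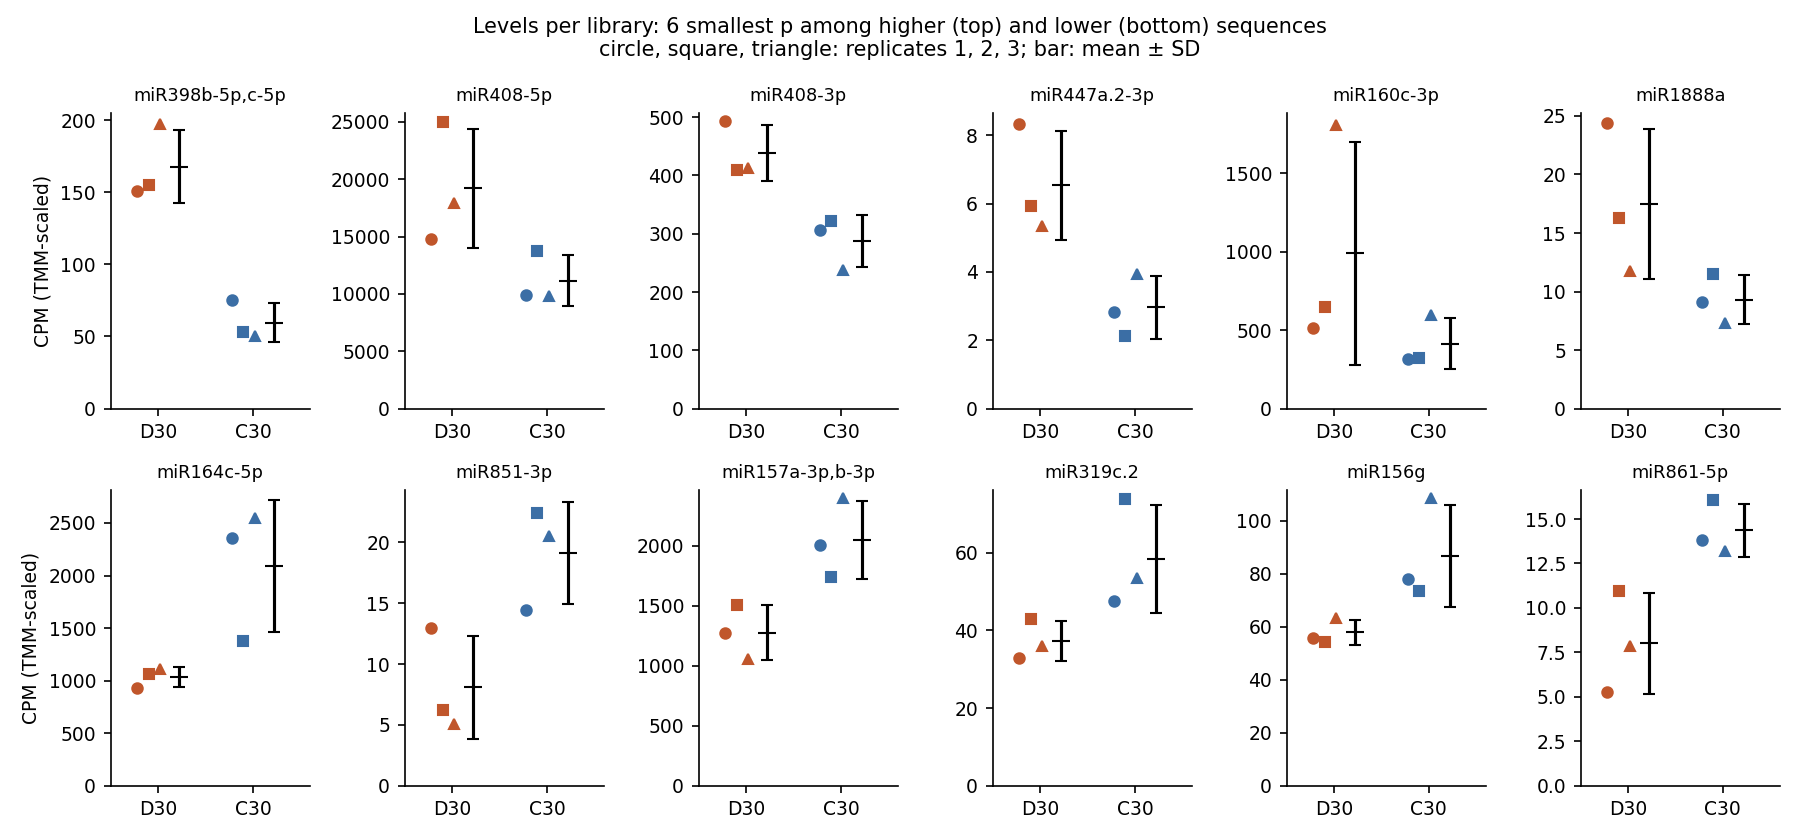
Levels per library in CPM after TMM scaling, from 0, for the 6 sequences of smallest p among the higher (top row) and the lower ones (bottom row), D30 left and C30 right, with one symbol per replicate and the mean ± SD beside the points. miR398b-5p,c-5p lies between 151 and 197 in D30 and between 50.3 and 75.2 in C30, and miR160c-3p is the one panel whose groups overlap.

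The remaining copper miRNAs were not called. miR397a, a regulator of laccases, had 34.2, 19.1 and 39.3 scaled CPM in D30 libraries, against 28.2, 15.5 and 19.7 in C30 libraries (log2 fold change 0.55, SE 0.30). miR397b had a log2 fold change of -0.26 (SE 0.26), although it differs from miR397a by a single substitution, G13T (miR397a base first, counted from the 5′ end), and such near-identical sequences may exchange reads where the authors' counting trimmed a read. miR398a-5p, from another MIR398 hairpin, had a log2 fold change of -0.022 (SE 0.26) and miR857, a laccase regulator, one of -0.063 (SE 0.23). Of the 9 copper sequences, 8 were tested and 5 had fold changes above 0. In 4 the unadjusted p by edgeR was under 0.05 upward, 1 was called, and the median was 0.58. Over all 166 sequences, 84 were above 0, 14 (8.43%) had an unadjusted p under 0.05 upward, 1 was called and the median was 0.0029. The 4 were both strands of miR398b,c and both strands of miR408. Strands cut from the same hairpins are not separate evidence. With total miRNA counts as the scaling, which moved the median of all sequences by 0.11, 7 of the 8 and 105 of all 166 were above 0.

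Members of miR164, which represses NAC transcription factors, had fold changes of opposite sign, as did members of other families such as miR397 and miR395. miR164c-5p (MIR164c, AT5G27807, chr5:9852684-9852704, plus strand) had 933, 1061 and 1115 scaled CPM in D30 libraries, against 2356, 1378 and 2547 in C30 libraries. All D30 libraries lay below all C30 libraries, and C30 replicate 2 was the lowest of its group. The log2 fold change was -1.01 (SE 0.23), with an adjusted p of 0.074 by edgeR, the second smallest of the comparison. It was called by DESeq2 (-0.98, adjusted p = 0.0072), without the filter (-1.07, adjusted p = 0.0080 by edgeR) and without C30 replicate 2 (-1.26, adjusted p = 0.0036 by edgeR). miR164a,b-5p, the more abundant form with the other base at position 21, had 9087, 16524 and 9284 scaled CPM in D30 libraries, against 8210, 10758 and 8526 in C30 libraries, which overlap (log2 fold change 0.34, SE 0.24). The 3p strand of MIR164b, named after its value was seen, had a log2 fold change of 1.05 (SE 0.47) from 8 to 38 reads per library. Whether reads moved between miR164c-5p and miR164a,b-5p in the authors' trimming step was not tested.

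The SPL regulators miR156 and miR157, which delay the passage to the adult phase, made up the largest part of the reads. miR157a-5p,b-5p,c-5p, first by level, had 254774, 288767 and 246233 scaled CPM in D30 libraries, against 263040, 238143 and 295625 in C30 libraries (log2 fold change -0.013, SE 0.15). miR156a-5p,b-5p,c-5p,d-5p,e,f-5p had a log2 fold change of -0.14 (SE 0.17). The groups overlapped in both. Less abundant members went both ways. All D30 libraries lay above all C30 libraries in 2 SPL regulators and below in 2, beside 10.2% and 11.4% of all 166 sequences. Those above, named after their values were seen, were miR156h (log2 fold change 0.37, SE 0.18) and miR156j (0.22, SE 0.17). Those below were miR157a-3p,b-3p and miR156g. miR157a-3p,b-3p, the opposite strand of MIR157a (chr1:24913205-24913225, minus strand) and MIR157b (chr1:24921175-24921195, plus strand), had 1270, 1505 and 1051 scaled CPM in D30 libraries, against 2002, 1741 and 2392 in C30 libraries. The groups did not overlap, and the log2 fold change was -0.68 (SE 0.20), with an adjusted p of 0.17 by edgeR and of 0.024 by DESeq2. miR156g had 55.8, 54.4 and 63.4 scaled CPM in D30 libraries, against 78.1, 73.4 and 109 in C30 libraries, also without overlap (log2 fold change -0.58, SE 0.20). It differs from the abundant miR156 sequence by C1T (miR156g base first). Of the 11 tested SPL regulators, 4 were above 0 and 7 below, with a median of -0.14 and 0 calls.

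miR159, which represses GAMYB-like MYB factors and is linked to abscisic acid, had fold changes below 0 in both of its tested members. miR159a had 995, 1332 and 1794 scaled CPM in D30 libraries, against 1829, 2456 and 1893 in C30 libraries. The highest D30 library reached just below the lowest C30 library, and the log2 fold change of -0.58 (SE 0.23) had an adjusted p of 0.25 by edgeR. miR159b-3p, which differs by A21T (miR159a base first), had 312, 413 and 626 scaled CPM in D30 libraries, against 581, 860 and 566 in C30 libraries, with overlap (log2 fold change -0.57, SE 0.26). Together with miR319a,b, a repressor of TCP factors (log2 fold change -0.17, SE 0.42), all 3 tested MYB and TCP regulators were below 0 under each of the 4 scalings, with a median of -0.57 and 0 calls. Of all 166 sequences, 82 were below 0 with TMM scaling, and between 61 and 100 under the 4 scalings. Whether miR159a and miR159b-3p exchanged reads in the authors' trimming step was not tested. The second duplexes of the miR319 hairpins were below 0 too, with miR319c.2 at 33.0, 42.8 and 35.9 scaled CPM in D30 libraries, against 47.6, 74.0 and 53.4 in C30 libraries (log2 fold change -0.65, SE 0.21, adjusted p = 0.21 by edgeR), but miR319b.2 (-0.020, SE 0.19) turned above 0 with RLE scaling or total miRNA counts.

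The other families that the literature links to drought or abscisic acid lay on both sides of 0. miR169d,e,f-5p,g-5p, which represses NF-YA subunits, had 210, 268 and 210 scaled CPM in D30 libraries, against 92.8, 206 and 128 in C30 libraries. The groups touched without overlap, at a log2 fold change of 0.69 (SE 0.26) and an adjusted p of 0.24 by edgeR. The other tested miR169 sequences ranged from -0.59 (miR169b-5p,c, SE 0.39) to 0.48 (miR169f-3p, SE 0.31), with miR169a-5p at 0.044 (SE 0.21), miR169h and its identical copies at 0.18 (SE 0.24) and miR169b-3p at -0.27 (SE 0.32). miR168a-5p,b-5p, which represses ARGONAUTE1, had 64075, 83259 and 72103 scaled CPM in D30 libraries, against 71378, 66935 and 78486 in C30 libraries (log2 fold change 0.017, SE 0.16), and its opposite strands had 0.17 (miR168a-3p, SE 0.18) and -0.026 (miR168b-3p, SE 0.31). The miR393 strands, from hairpins whose known regulator represses auxin receptors, had -0.0030 (miR393a-3p, SE 0.30) and 0.078 (miR393b-3p, SE 0.18). miR394a,b-5p, which represses the F-box gene LCR, varied most between replicates, with 3.39, 33.5 and 7.29 scaled CPM in D30 libraries, against 5.96, 7.88 and 28.9 in C30 libraries, so that its log2 fold change of 0.026 had an SE of 0.72. Of the 20 sequences of these families and miR159 together, 14 were tested. In 8 the fold change was above 0 and in 6, including miR159a and miR159b-3p, below. The median was 0.022, with 0 calls.

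Among the auxin-related families, the largest value belonged to miR160c-3p (MIR160c, chr5:19009095-19009115, minus strand), the strand opposite to the ARF repressor miR160. It had 515, 647 and 1805 scaled CPM in D30 libraries, against 319, 325 and 600 in C30 libraries. The mean of D30 rested on replicate 3, and D30 replicate 1 lay below C30 replicate 3, with a log2 fold change of 1.25 (SE 0.42) and an adjusted p of 0.21 by edgeR. miR390a-3p, opposite to the trigger of TAS3 small RNAs, also had its highest level in D30 replicate 3, with 28.7, 15.6 and 57.2 scaled CPM in D30 libraries, against 21.3, 10.9 and 21.6 in C30 libraries (log2 fold change 0.92, SE 0.41). The known regulators of these hairpins had fold changes near 0, 0.0031 for miR160a-5p,b,c-5p (SE 0.27) and 0.021 for miR390a-5p,b-5p (SE 0.16). Both sequences are shared with other hairpins, as their names give, and their reads cannot be divided between them. These values are thus not those of MIR160c or MIR390a alone. miR167a-5p,b, which represses ARF6 and ARF8 and was second by level, had 202240, 264955 and 195861 scaled CPM in D30 libraries, against 278735, 242806 and 285913 in C30 libraries (log2 fold change -0.28, SE 0.16). Its opposite strand miR167a-3p had 227, 203 and 233 in D30 libraries, against 355, 290 and 264 in C30 libraries, without overlap (log2 fold change -0.45, SE 0.18, adjusted p = 0.25 by edgeR). Of the 11 tested auxin-related sequences 6 were above 0 and 5 below, with a median of 0.0031 and 0 calls.

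**Figure D3:**
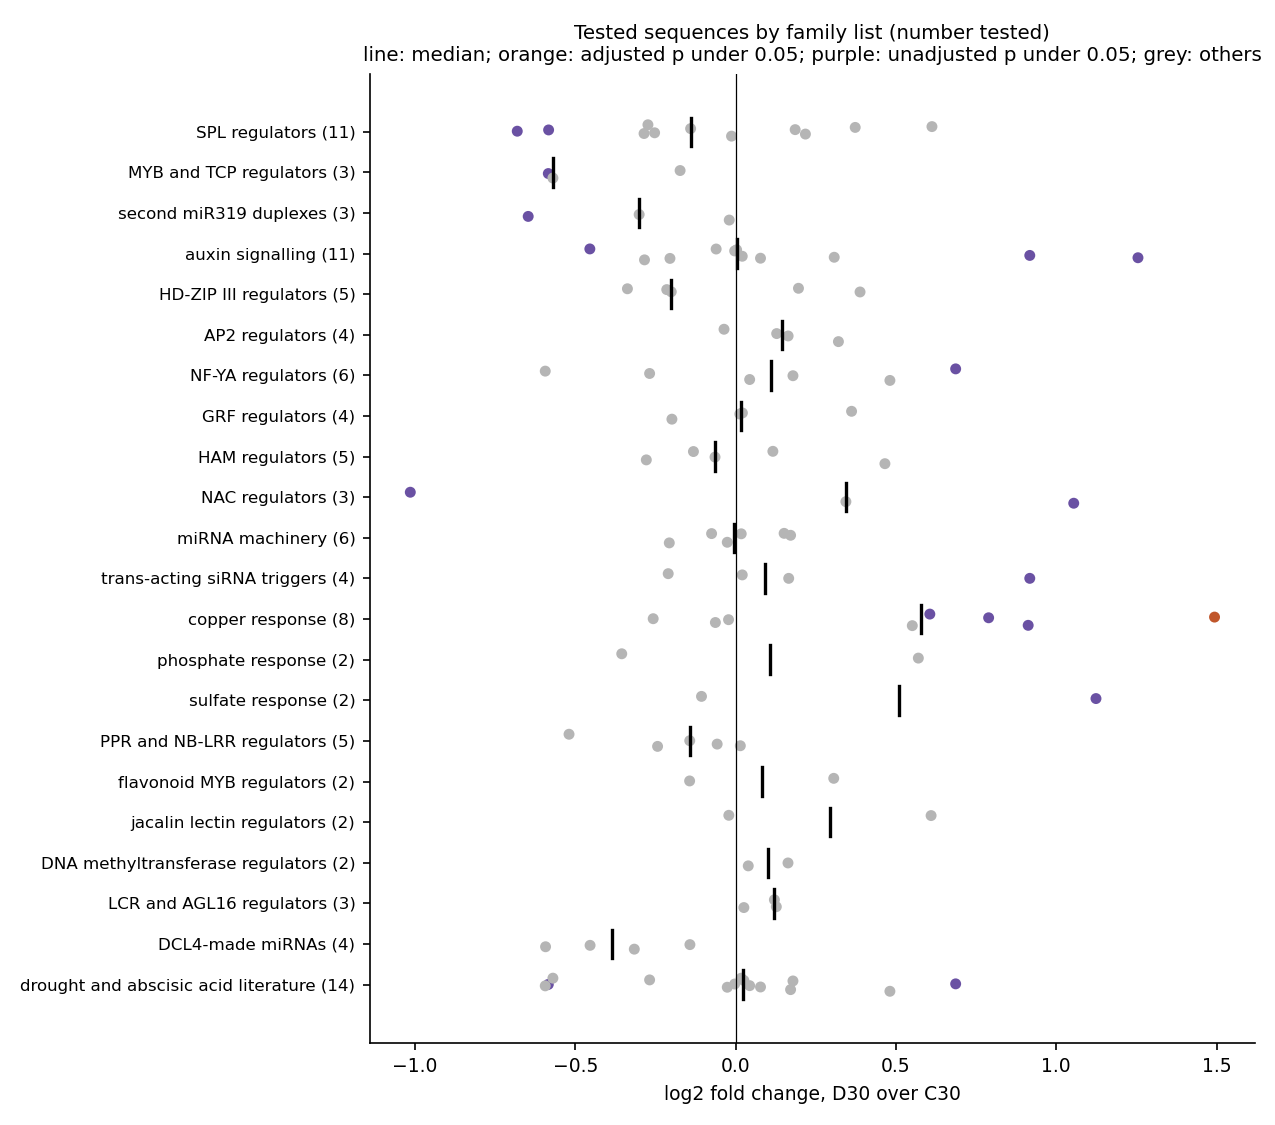
Log2 fold change of D30 over C30 (horizontal axis) of every tested sequence of 22 family lists, with the number tested in brackets and a line at each list's median. The copper list has the one sequence of adjusted p under 0.05 and a median of 0.58, the MYB and TCP list a median of -0.57, and the other lists medians between -0.39 and 0.51.

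No call was made among the other developmental regulators. For HD-ZIP III factors, miR166a-3p, which shares its sequence with miR166b-3p, miR166c, miR166d, miR166e-3p, miR166f and miR166g, had 97896, 114484 and 88381 scaled CPM in D30 libraries, against 102586, 129623 and 116849 in C30 libraries (log2 fold change -0.21, SE 0.16), and miR165a-3p,b had a log2 fold change of -0.20 (SE 0.19). Of this family, miR166e-5p had a log2 fold change of 0.39 (SE 0.19), with 505, 606 and 420 scaled CPM in D30 libraries and 355, 407 and 407 in C30 libraries. miR172a,b-3p, which represses AP2-like factors, had a log2 fold change of -0.036 (SE 0.17) and miR172e-3p one of 0.32 (SE 0.40). miR171a-3p and miR171c-5p, of a family that represses HAM factors, had 0.12 (SE 0.20) and 0.47 (SE 0.31). miR396b-3p, opposite to a GRF repressor, had 0.36 (SE 0.19). The AP2, GRF and HAM lists had 0 calls of 4, 4 and 5 tested sequences. miR162a-3p,b-3p, the repressor of DICER-LIKE 1, had 796, 856 and 762 scaled CPM in D30 libraries, against 886, 978 and 922 in C30 libraries. These did not overlap, at a log2 fold change of -0.21 (SE 0.16) and an adjusted p of 0.59 by edgeR. miR158a-3p and miR161.1 ranked 6 and 7 by level. miR161.1 and miR400 repress pentatricopeptide repeat mRNAs. The log2 fold changes were -0.17 (SE 0.17) for miR158a-3p, -0.058 (SE 0.17) for miR161.1 and -0.52 (SE 0.29) for miR400.

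Among nutrient miRNAs other than those of copper, the sulfate-related miR395a,d,e had 4.01, 3.44 and 7.57 scaled CPM in D30 libraries, against 3.45, 1.52 and 1.97 in C30 libraries, from 5 to 27 reads per library. The groups overlapped barely, at a log2 fold change of 1.12 (SE 0.46) and an adjusted p of 0.28 by edgeR. miR395b,c,f, which differs by G17A (miR395b,c,f base first), had a log2 fold change of -0.11 (SE 0.33). The phosphate-related miR399b,c-3p had 0.57 (SE 0.29) and miR827 had -0.36 (SE 0.21), and these were the 2 tested sequences of 11 in that list. The DCL4-made miRNAs, cut from long hairpins by another Dicer, were below 0 in all 4 tested sequences and under each of the 4 scalings, with a median of -0.39 and 0 calls. Of all 166 sequences, 82 were below 0 with TMM scaling, 74 with RLE, 61 with total miRNA counts and 100 with genome-mapped reads. The scalings use the same counts and are not separate evidence. In the DCL4 list, miR822-3p had 7.40, 5.31 and 7.57 scaled CPM in D30 libraries, against 11.3, 8.18 and 11.2 in C30 libraries (log2 fold change -0.59, SE 0.29). The other strand of its hairpin, miR822-5p, is also in the list and had -0.14 (SE 0.17). miR823, which represses the DNA methyltransferase gene CMT3, had 0.16 (SE 0.17). miR824-5p and miR824-3p, of the AGL16 regulator, had 0.12 (SE 0.19) and 0.13 (SE 0.18), the MYB regulator miR858a had 0.31 (SE 0.46), and the jacalin lectin regulator miR846-3p had 0.61 (SE 0.28) with all D30 libraries above all C30 libraries.

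Several sequences with small p-values belong to less conserved miRNAs. miR851-3p had 13.0, 6.25 and 5.05 scaled CPM in D30 libraries, against 14.4, 22.4 and 20.5 in C30 libraries. It had the lowest log2 fold change of all, -1.24 (SE 0.35), and the groups did not overlap, with an adjusted p of 0.17 by edgeR. miR861-5p (-0.84, SE 0.30) and miR850 (-0.46, SE 0.18) also had all D30 libraries below all C30 libraries, whereas miR5023 (-0.62, SE 0.22) overlapped. Upward, miR447a.2-3p had 8.33, 5.94 and 5.33 scaled CPM in D30 libraries, against 2.82, 2.12 and 3.93 in C30 libraries (log2 fold change 1.12, SE 0.37, adjusted p = 0.21 by edgeR). miR1888a (0.91, SE 0.32) and miR5655 (0.74, SE 0.31) likewise had all D30 libraries above all C30 libraries, and miR5648-3p (0.63, SE 0.24) overlapped. These 3 lay between 4.24 and 46.3 scaled CPM.

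Both strands were tested in 34 pairs of a 5p and a 3p sequence, some of which share a sequence with another pair. Both strands were above 0 in 11 pairs, both below 0 in 10, and of opposite sign in 13. miR408 and miR398b,c were the pairs in which both strands had a log2 fold change above 0.5.

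**Figure D4:**
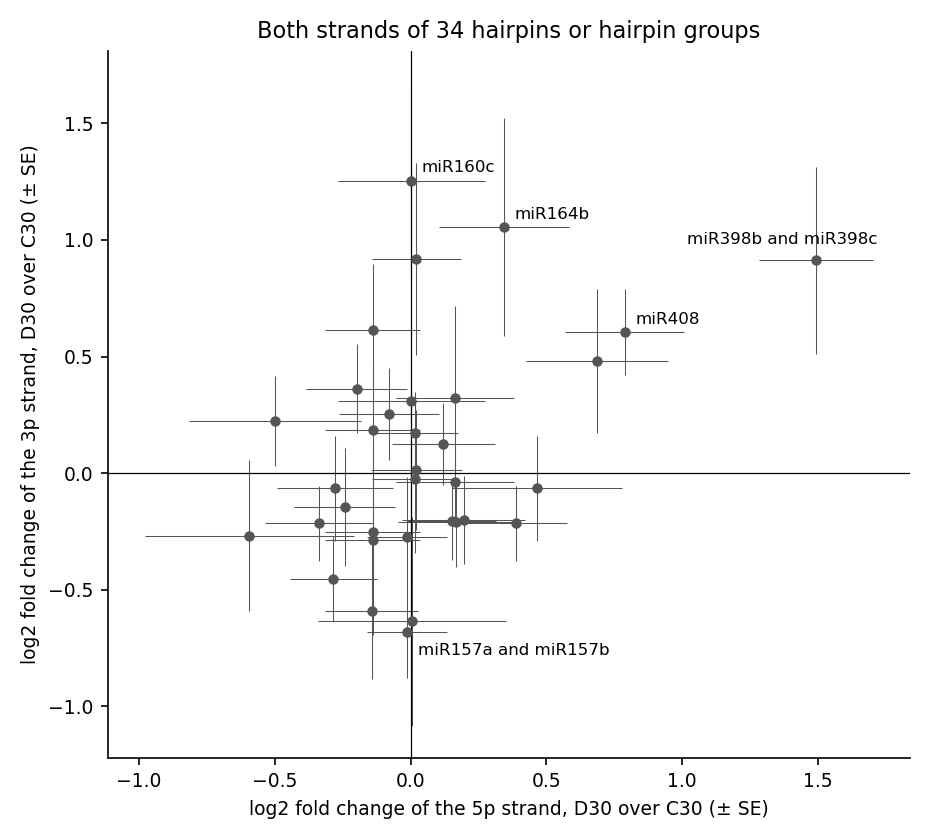
Log2 fold change of the 3p strand against that of the 5p strand, D30 over C30, for 34 pairs of strands, with bars for the SE. miR398b and miR398c lie at 1.49 (5p) and 0.91 (3p) and miR408 at 0.79 and 0.61, while miR160c and the pair of miR157a and miR157b differ from 0 mainly in the 3p strand. The 5p sequences of miR160c and of miR157a and miR157b are shared with further hairpins, whose reads they include.

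Small differences in the make-up of the miRNA reads were seen, none at an adjusted p under 0.05 by the exact permutation test. The 5 most abundant sequences held 81.9, 82.3 and 82.3% of the miRNA reads in D30 libraries, against 83.5, 83.0 and 83.9% in C30 libraries. The groups did not overlap, and the difference of -1.30 percentage points had the smallest p the design allows (two-sided exact permutation test, p = 0.10, n = 3 each, 0.23 after adjustment over the 9 shares compared). Reads were also grouped by the first base of the miRNA sequence they were counted for, not of the read itself. Those of sequences that start with A were 5.08, 4.90 and 5.16% in D30 libraries, against 4.03, 4.08 and 3.71% in C30 libraries, again without overlap (exact permutation p = 0.10, adjusted 0.23). Reads of sequences that start with C were 0.283, 0.273 and 0.427% in D30 against 0.209, 0.241 and 0.229% in C30 libraries. Those of sequences that start with U were 94.0, 94.2 and 93.8% in D30 against 95.2, 95.1 and 95.5% in C30 libraries. Both had the same p. The shares by first base are parts of 1 total, so they are not separate differences. miR408-5p, which starts with A, held 1.63, 2.25 and 2.04% of the miRNA reads in D30 libraries, against 0.971, 1.40 and 0.865% in C30 libraries. Without it, in a calculation chosen after seeing the data, the share of sequences that start with A was 3.51, 2.71 and 3.18% in D30 and 3.08, 2.73 and 2.87% in C30 libraries, which overlap (exact permutation p = 0.50, n = 3 each). Sequences of 20, 21 and 22 nucleotides had overlapping shares (exact permutation p = 0.80, 0.80 and 0.50, n = 3 each). miRNA reads made up 28.3, 34.6 and 29.9% of the genome-mapped reads in D30 libraries, against 32.2, 33.3 and 40.9% in C30 libraries, which overlap (exact permutation p = 0.30, n = 3 each).

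The D30 response was set against that of leaves at 20% soil water and wilting (D20 against C20, plants of 30 days, 3 libraries each with controls of their own) by testing the difference of the 2 changes over all 12 libraries. The difference, severe minus mild, was called by edgeR for 6 of 177 sequences (3.39%), 4 upward and 2 downward. Leaving out single libraries changed this count to between 2 (without D20 replicate 3) and 14 (without D20 replicate 1). Values in this paragraph are CPM, scaled to total miRNA reads so that all 12 libraries share 1 scale. miR164c-5p had 1026, 958 and 1270 CPM in D30 and 2319, 1403 and 2243 CPM in C30, all D30 below all C30, whereas its 2739, 3008 and 2370 CPM in D20 lay above the 972, 1918 and 1544 CPM in C20. The difference was 1.69 (SE 0.42, adjusted p = 0.044 by edgeR). miR159a was also lower on average in D30, though the groups overlapped on this scale, and all D20 lay above all C20, with 1094, 1203 and 2045 CPM in D30, 1801, 2502 and 1667 in C30, 3121, 3956 and 5684 in D20 and 1939, 1137 and 1825 in C20 (difference 1.80, SE 0.43, adjusted p = 0.044 by edgeR).

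The estimates of miR160a-3p and miR396b-3p, strands opposite to ARF and GRF repressors, had the reverse signs. Under mild drought neither was called, with log2 values of 0.31 (SE 0.19) for miR160a-3p and 0.36 (SE 0.19) for miR396b-3p. In scaled CPM, D30 and C30 overlapped for both. For miR160a-3p, D30 replicate 1 had 833 scaled CPM, below the 917 of C30 replicate 3. These groups separate only in CPM of total miRNA reads, the scale used next. miR160a-3p had 917, 917 and 1213 CPM in D30, 688, 752 and 807 in C30, 359, 185 and 171 in D20 and 620, 597 and 855 in C20 (difference -2.03, SE 0.40, adjusted p = 0.021 by edgeR). miR396b-3p differed by -1.44 (SE 0.34, adjusted p = 0.044 by edgeR). miR408-3p had log2 fold changes of 0.61 (SE 0.19) under mild and 1.77 (SE 0.23) under severe drought, each from a fit of its own 6 libraries. The difference, from the fit of all 12 libraries and thus not exactly their gap, was 1.30 (SE 0.32, adjusted p = 0.044 by edgeR). It was not called when libraries were scaled by their total miRNA counts (adjusted p = 0.055 by edgeR). miR866-5p, too low for the test in the mild comparison with 7 to 12 reads per library, had 3.39, 2.54 and 2.24 CPM in D30, 2.78, 2.16 and 2.97 in C30, 34.9, 33.3 and 42.1 in D20 and 5.50, 2.76 and 4.32 in C20 (difference 3.10, SE 0.41, adjusted p = 0.00089 by edgeR). For miR398b-5p,c-5p, the sequence called under mild drought, the log2 fold change was 1.49 (SE 0.21) under mild and 0.087 (SE 0.28) under severe drought. The difference in the fit of all 12 libraries, -1.31 (SE 0.43), had an adjusted p of 0.11 by edgeR. RLE scaling and DESeq2 called it, with 14 and 20 calls in all.

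**Figure D5:**
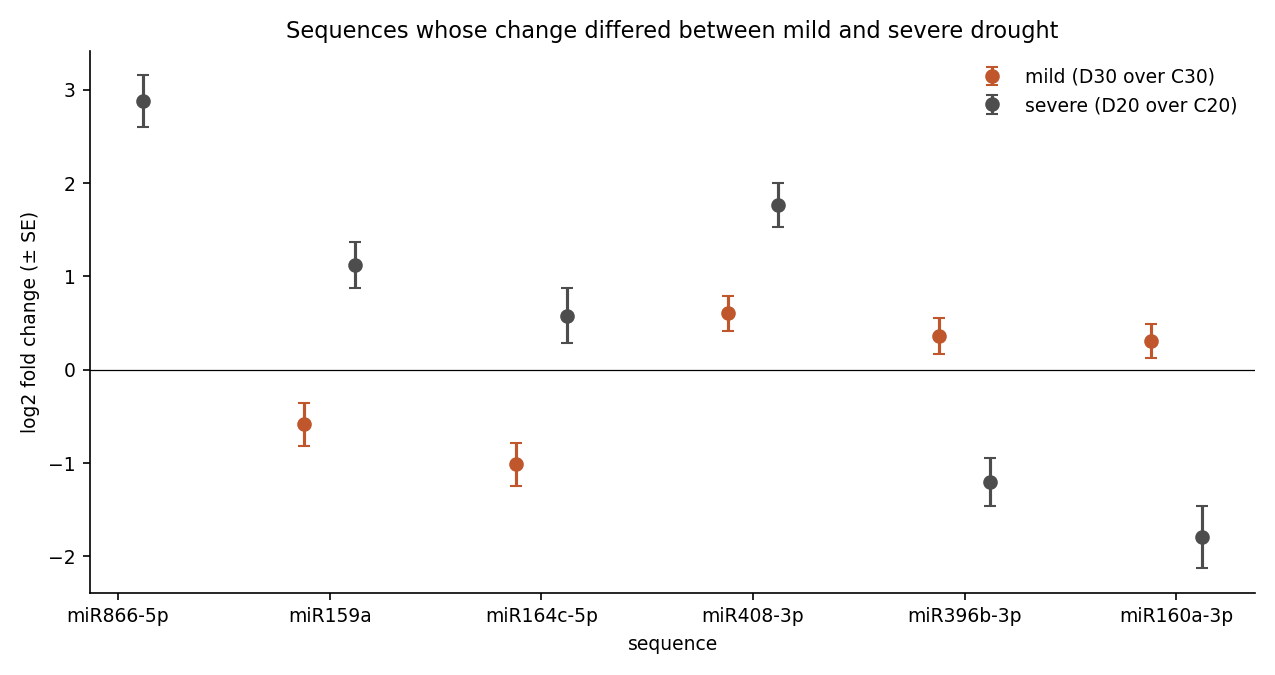
Log2 fold change with its SE under mild drought (D30 over C30, left of each pair) and severe drought (D20 over C20, right) for the 6 sequences whose change differed between the drought levels. The changes shown come from separate fits, and the difference was tested in another fit, of all 12 libraries. The estimates of miR159a and miR164c-5p are below 0 under mild and above 0 under severe drought, those of miR396b-3p and miR160a-3p the reverse. None of these mild changes was called, nor was the severe change of miR164c-5p (0.58, SE 0.29). A change in opposite directions is therefore not shown, only a difference. miR866-5p has no mild value because its 7 to 12 reads per library were under the filter.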

How the data were processed

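Small RNA was sequenced from rosette leaves, 3 libraries of D30 and 3 of C30. The authors dropped reads under 17 nucleotides, aligned the others with mature Arabidopsis miRNAs (miRBase 21 and a few additions), and tried reads without a match again after shortening them from both sides. The deposited counts are whole reads per miRNA name and are not normalized. Per library, the deposited percent is the share of reads mapped to the genome (TAIR10, Bowtie 1.0.0 in the submitters' processing notes), and the integrity of the RNA is given as a score measured by the authors. The authors' mean CPM, fold changes and one-way F test p-values were not used. Names with an identical sequence share 1 count, so 431 names gave 353 sequences of 19 to 24 nucleotides, all found by exact match in TAIR10.1, the build of the coordinates and printed genome sequence.

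Counts were filtered (filterByExpr, minimum count 10), scaled by TMM and compared with the quasi-likelihood test of edgeR 4.0.16 (R 4.3.3) with Benjamini-Hochberg adjustment over all sequences kept, and a call was an adjusted p under 0.05. The SE was worked back from this test, as the absolute log2 fold change divided by the square root of its F value. The difference between drought levels was an interaction over the 12 drought libraries. The changes under mild and severe drought came from separate fits of their own 6 libraries. Shares and strand ratios were compared by two-sided exact permutation over the 20 ways to divide 6 libraries. DESeq2 1.42.0, other scalings, the unfiltered table, a replicate block, joint fits and the omission of each library were the alternatives. Scripts were tested on simulated data. Counting limits cover counting error only, since reads carry no molecular identifiers.

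The text names each called sequence and its other strand, the 10 sequences of smallest p in each direction, the 10 of most reads, the member of most reads and that of smallest p in each family list, every tested copper and drought-linked sequence, and every sequence called in the difference between drought levels. The comparison, the lists and this rule were chosen with earlier results of these data known. Same-numbered D30 and C30 libraries had correlations of their deviations of 0.35, 0.24 and -0.090, so the numbers were not taken to pair them.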

Additional observations from a re-analysis of the deposited data

Results flagged for a closer look

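The change under severe drought differed from that under mild drought in a test of the difference itself (edgeR, adjusted over 177 sequences) for 6 sequences. The log2 difference, severe minus mild, was 3.10 for miR866-5p, 1.80 for miR159a, 1.69 for miR164c-5p, 1.30 for miR408-3p, -1.44 for miR396b-3p and -2.03 for miR160a-3p. The 2 drought levels were sampled at different plant ages, 27 and 30 days, each with controls of its own age, and age and drought level cannot be told apart. Leaving out 1 of the 12 libraries ended the call of miR159a in 7 cases, of miR164c-5p in 8, of miR408-3p in 10 and of miR396b-3p in 5, with adjusted p-values of up to 0.14 by edgeR, whereas miR160a-3p and miR866-5p kept theirs. Scaling by total miRNA counts also ended the call of miR408-3p (1.30, adjusted p = 0.055 by edgeR).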

How the results depend on the processing

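The single call under mild drought, miR398b-5p,c-5p, stayed a call with RLE scaling, total miRNA counts and genome-mapped reads, and its fold change stayed above 0 in every alternative run. The count of calls was 3 without the filter, 4 with DESeq2, 0 in the joint fit of the 12 drought libraries, 0 in that of all 39 libraries, 28 (17 higher, 11 lower) where an unadjusted p of at most 0.05 from an F test of CPM values made the call, and 25 at an unadjusted p under 0.05. It ranged from 0 to 5 when 1 library was left out. The replicate block gave 4 calls (3 higher, 1 lower), adding miR160c-3p, miR164c-5p and miR408-5p. D30 replicate 2 correlated best with C30 replicate 3 (0.34), so not every library correlated best with its own number, and the labels mention 3 plant batches without tying the numbers to them. The difference between drought levels gave 14 calls with RLE scaling, 20 with DESeq2, 4 with the replicate block (without miR164c-5p and miR408-3p, adjusted p = 0.058 each by edgeR) and 2 to 14 when 1 library was left out. The cause of these changes was not tested.

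Sequences whose fold change was small against its SE changed sign, none of them called. With total miRNA counts the log2 fold change was 0.11 for miR157a-5p,b-5p,c-5p, 0.049 for miR161.1, 0.11 for miR168b-3p, 0.090 for miR172a,b-3p, 0.081 for miR319b.2, 0.12 for miR393a-3p, 0.088 for miR398a-5p and 0.061 for miR857. With RLE scaling it was 0.014 for miR157a-5p,b-5p,c-5p, 0.012 for miR168b-3p, 0.0012 for miR319b.2 and 0.030 for miR393a-3p, and with DESeq2 0.018, 0.014, 0.0022 and 0.032 for the same sequences and 0.0034 for miR398a-5p. With genome-mapped reads it was -0.060 for miR168a-5p,b-5p, -0.043 for miR169a-5p, -0.049 for miR390a-5p,b-5p and -0.10 for miR394a,b-5p, and without the filter -0.047, -0.010, -0.032 and -0.066. The replicate block gave 0.00043 for miR393a-3p and -0.17 for miR394a,b-5p. With 1 library left out, values ranged from -0.11 to 0.067 for miR157a-5p,b-5p,c-5p, -0.20 to 0.097 for miR161.1, -0.085 to 0.16 for miR168a-5p,b-5p, -0.39 to 0.16 for miR168b-3p, -0.084 to 0.29 for miR169a-5p, -0.059 to 0.34 for miR169h and its identical copies, -0.16 to 0.27 for miR171a-3p, -0.16 to 0.035 for miR172a,b-3p, -0.096 to 0.59 for miR172e-3p, -0.17 to 0.081 for miR319b.2, -0.12 to 0.11 for miR390a-5p,b-5p, -0.14 to 0.14 for miR393a-3p, -0.073 to 0.21 for miR393b-3p, -1.4 to 1.1 for miR394a,b-5p, -0.39 to 0.13 for miR395b,c,f, -0.23 to 0.080 for miR398a-5p, -0.053 to 0.23 for miR824-5p, -0.20 to 0.098 for miR857 and -0.30 to 0.63 for miR858a. Without the most abundant sequence the difference of the 20-nucleotide share was 0.22 and of the 21-nucleotide share -0.38 percentage points, and with 1 library left out these ranged from -0.86 to 0.40 and from -0.46 to 0.73. The difference of the miR408 log2 strand ratio then ranged from -0.091 to 0.42. With 3 libraries a group and a median SE of 0.24 on the log2 scale, changes of the size of that error were not detectable, and sequences under about 10 reads were not tested.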
